A study of Mus musculus with 4 samples.

Results

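The Egr, Ier and Nr4a genes and Srf, the gene of serum response factor, were followed in chromatin-bound RNA of C2C12 myotubes after dexamethasone. They were taken from the table of read counts by gene symbol as serum-response immediate-early genes outside the AP-1 family. All 10 symbols (Egr1, Egr2, Egr3, Ier2, Ier3, Ier5, Nr4a1, Nr4a2, Nr4a3 and Srf) were found among 23282 features, and all 10 had enough counts to be tested. C2C12 is an established female mouse muscle line derived from 1 clone, here differentiated into myotubes and deprived of steroids in both groups. One group received vehicle and the other 1 µM dexamethasone, a synthetic glucocorticoid, each for 2 h, with 2 libraries per group. RNA was purified from the washed chromatin pellet of lysed nuclei, so it is enriched for transcripts still attached to their template.

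Immediate-early genes are transcribed within minutes of a stimulus, without new protein synthesis. Growth factors and serum act through Ras and the ERK kinases on ternary complex factors, which sit with serum response factor on CArG boxes in promoters, and cAMP acts through CREB on cAMP response elements. Glucocorticoids act through a receptor that binds DNA and that can also restrain other transcription factors. The Egr genes encode zinc finger transcription factors. The Nr4a genes encode orphan nuclear receptors. Among the Ier genes, Ier3 is known as a regulator of cell survival.

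Promoter sequences were examined first, for motifs of the factors named above. RefSeq windows of 300 bases on GRCm38.p6 (250 before the start site and 50 after it) were matched by symbol for 7 of the genes, 11 windows in all. Egr1, Egr3 and Ier2 were not matched. The 5 windows below are shown because they hold CArG boxes or several copies of TGACG, the core of the cAMP response element, and were picked after the matches of every motif were known. Capitals mark the CArG boxes in Srf and Egr2 and the TGACG cores, on either strand, in the Nr4a genes. Each is written 5′ to 3′ on the strand of the gene. They lie at chr17:46556113-46556412 (minus strand) for Srf, chr10:67537619-67537918 (plus strand) for Egr2, chr15:101266596-101266895 (plus strand) for Nr4a1, chr2:57123954-57124253 (minus strand) for Nr4a2 and chr4:48045055-48045354 (plus strand) for Nr4a3.
Srf: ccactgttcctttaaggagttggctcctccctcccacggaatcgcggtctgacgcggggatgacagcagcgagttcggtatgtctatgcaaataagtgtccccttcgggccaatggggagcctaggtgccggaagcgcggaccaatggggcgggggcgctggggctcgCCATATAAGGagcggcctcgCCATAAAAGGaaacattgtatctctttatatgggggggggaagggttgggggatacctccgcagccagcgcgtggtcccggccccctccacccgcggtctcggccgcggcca
Egr2: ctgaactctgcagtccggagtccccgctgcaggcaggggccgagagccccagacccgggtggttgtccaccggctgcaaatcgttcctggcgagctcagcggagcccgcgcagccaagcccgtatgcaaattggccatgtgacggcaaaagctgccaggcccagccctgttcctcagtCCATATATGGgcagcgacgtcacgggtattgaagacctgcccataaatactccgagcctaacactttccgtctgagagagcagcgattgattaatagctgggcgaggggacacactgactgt
Nr4a1: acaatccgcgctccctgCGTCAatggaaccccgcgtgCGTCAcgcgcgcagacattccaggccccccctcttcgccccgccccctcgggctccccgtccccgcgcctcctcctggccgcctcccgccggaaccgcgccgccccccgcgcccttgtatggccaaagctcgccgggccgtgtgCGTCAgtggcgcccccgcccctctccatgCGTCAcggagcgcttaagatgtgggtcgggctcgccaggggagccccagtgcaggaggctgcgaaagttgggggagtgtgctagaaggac
Nr4a2: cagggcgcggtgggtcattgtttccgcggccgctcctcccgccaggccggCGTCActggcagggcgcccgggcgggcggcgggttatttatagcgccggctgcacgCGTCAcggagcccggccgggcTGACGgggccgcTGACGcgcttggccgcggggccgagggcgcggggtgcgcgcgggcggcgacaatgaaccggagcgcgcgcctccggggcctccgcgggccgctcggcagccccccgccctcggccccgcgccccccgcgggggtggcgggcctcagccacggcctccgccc
Nr4a3: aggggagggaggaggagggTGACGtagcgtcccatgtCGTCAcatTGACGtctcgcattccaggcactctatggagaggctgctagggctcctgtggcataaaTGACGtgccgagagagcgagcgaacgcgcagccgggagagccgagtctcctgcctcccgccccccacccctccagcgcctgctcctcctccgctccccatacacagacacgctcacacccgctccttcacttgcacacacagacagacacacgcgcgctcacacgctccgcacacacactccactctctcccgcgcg

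The Srf window held 2 CArG boxes, which begin 82 and 62 bases before the start site. At least 2 CArG boxes were present in 0.0183% of 32851 mouse promoter windows, and at least 1 in 1.63%. The Egr2 window shown held 1 CArG box, 72 bases before the start site. Of the 5 Egr2 windows, 4 held 1 CArG box each. One of these, chr10:67537316-67537615, does not overlap the window shown, so its box is a different one. The Nr4a1, Nr4a2 and Nr4a3 windows held no CArG box but 4 TGACG cores each, a number reached in 0.231% of all windows, while at least 1 core was present in 20.8%. The core was not particular to them, as Egr2 held 2 copies and Srf 1, left in lower case above. The full element TGACGTCA, which contains the core, was not found in a member's window and was present in 1.79% of all windows. Srf and Nr4a1 each held 1 copy of the EGR site variant GCGGGGGCG (2.91% of windows). GCGTGGGCG, the other EGR site searched (0.612%), the NGFI-B response element AAAGGTCA to which NR4A receptors bind (1.51%) and the glucocorticoid receptor core AGAACA (19%) were not found in the windows of the 7 genes. The Ier3 and Ier5 windows held none of the motifs. All motifs were searched on both strands, and a match describes the letters in this window only.

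**Figure D1:**
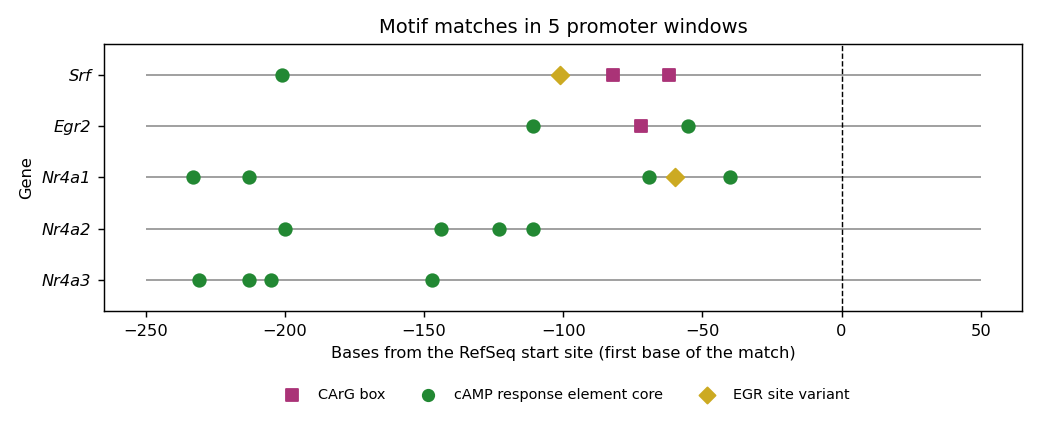
Positions of motif matches in the 5 promoter windows shown. The horizontal axis gives bases from the RefSeq start site to the first base of the match and each row is 1 gene. Squares mark CArG boxes (2 in Srf, 1 in Egr2), circles the cAMP response element core (4 in each Nr4a gene, 2 in Egr2 and 1 in Srf) and diamonds the EGR site variant (1 in Srf, 1 in Nr4a1).

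The libraries held between 19631435 and 88596296 counts. As a check of the treatment, Fkbp5, a classical glucocorticoid target, went from 21.5 ± 0.0889 to 858 ± 228 CPM (SD, n = 2 each), where CPM are counts scaled to library size with TMM factors, with a log2 fold change of 5.32 (edgeR quasi-likelihood adjusted p 0.0429). All 12 myotube markers examined were abundant enough to test, and their summed level ran from 45864 to 130594 CPM. Summed CPM of other cell types ran from 42.0 to 61.3 for 6 markers of cycling myoblasts, 32.1 to 57.0 for 6 of fibroblasts (Thy1 and Lum at 0), 5.12 to 7.71 for 6 of immune cells (Ptprc at 0 or 1 count, Cd3e at 0 within a run of 164 consecutive table genes of 1 strand at 0, so that its 0 was not read), 1.94 to 2.52 for 5 of endothelial cells and 0.107 to 0.211 for 5 of adipocytes (Cidec at 0). Libraries with the same replicate number resembled each other more closely across genes (r of 0.986 and 0.991) than libraries of the same group (0.979 and 0.984).

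In vehicle-treated myotubes Egr1 was the most abundant member per length and Nr4a3 the least. Levels are given here as CPM per kb of exon (GENCODE M21 exons), mean ± SD over 2 libraries, since levels of genes of different length compare only per length. The order holds for exon length only, because it is not given whether introns were counted. Nr4a1 has 3.51 kb of exon in a span of 20.5 kb and Nr4a3 5.99 kb in 41.3 kb. In Ier2 and Ier5 exon length and span are equal. Egr1 stood at 7.86 ± 2.88. A group of 4 followed, with Ier5 at 4.36 ± 0.0776, Nr4a1 at 4.20 ± 0.952, Ier2 at 4.08 ± 1.88 and Srf at 3.82 ± 1.73. The ranges of neighbours in this group overlapped, so their order is not resolved. Ier3 stood at 2.00 ± 0.208, Egr3 at 1.80 ± 1.11 and Nr4a2 at 1.64 ± 0.0298, again with overlapping neighbours. Egr2 (0.761 ± 0.273) and Nr4a3 (0.383 ± 0.130) were lowest, and the ranges of Nr4a2, Egr2 and Nr4a3 lay apart from one another. After dexamethasone Nr4a3 had a mean of 0.775 ± 0.433 and Egr2 one of 0.713 ± 0.204 CPM per kb, with overlapping ranges.

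Dexamethasone left the group without a member past the threshold. In the quasi-likelihood test of edgeR, adjusted over 13285 genes by Benjamini-Hochberg, 0.0376% of genes were called, all of them higher (0% lower), and 0 of the 10 members were among them. With so few genes called, 0 of 10 members says little. No member had an unadjusted p under 0.05 either, against 4.09% of genes in the higher and 1.69% in the lower direction. The limma-voom test called 0% of all genes in either direction, so that its 0 members carry no information. DESeq2 also called 0 members, with 2.18% of genes called (1.78% higher and 0.399% lower), as did the likelihood ratio test of edgeR with 2.17% (1.83% higher and 0.339% lower). With the replicate number as a block, which the labels do not establish as a pairing, edgeR called 12.7% of genes, and 2 members passed, Nr4a3 higher (6.87% of genes) and Egr3 lower (5.78%). The median log2 fold change of the 10 was -0.16, beside -0.0016 over all tested genes. The sign was negative in 8 members and positive in 2, where 50.3% of all genes were negative. The median turned positive without vehicle replicate 2 (0.23) or without dexamethasone replicate 1 (0.06), and 7 members changed sign when 1 library was left out. Both dexamethasone libraries lay below both vehicle libraries in 2 members, Ier3 and Nr4a2 (12.9% of all genes), and above them in 0 (15% of all genes). Within replicate number, 7 members were lower with dexamethasone in both numbers (34.2% of all genes), 2 were higher in both (33.8%) and Ier5 had opposite signs. The standard errors ran from 0.190 to 0.722 on the log2 scale with a median of 0.402, wider than the 0.230 of all genes, so these values do not show that the members were unchanged.

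**Figure D2:**
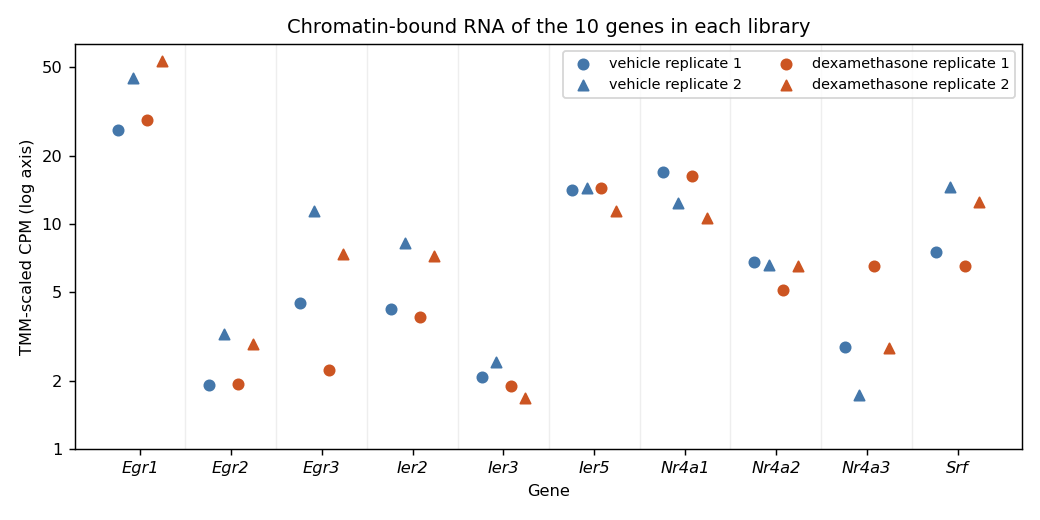
TMM-scaled CPM of each gene in the 4 libraries, on a log axis. Blue is vehicle and orange dexamethasone, circles are replicate 1 and triangles replicate 2, and each point is 1 library. For Egr1, Egr2, Egr3, Ier2 and Srf both triangles lie above both circles, and for Nr4a1 and Nr4a3 both lie below.

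Egr1, the gene of a zinc finger factor widely used as a marker of cell stimulation, had 26.1 and 44.4 CPM in the vehicle libraries (replicates 1 and 2) and 28.9 and 53.2 CPM in the dexamethasone libraries. The groups overlapped, and the replicate 2 library was the higher one in each. Its log2 fold change was 0.22 (95% interval -0.85 to 1.29, edgeR adjusted p 1.00). Within replicate number 1 the log2 difference was 0.14, and within number 2 it was 0.26. Without vehicle replicate 1 or without dexamethasone replicate 2 the fold change was negative (-0.11 and -0.29).

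Egr2, known for its role in Schwann cells, was scarce, with counts of 36 and 123 (vehicle) and of 58 and 272 (dexamethasone). That is 1.93 and 3.24 CPM against 1.94 and 2.91 CPM. The groups covered nearly the same range, and the log2 fold change was -0.10 (95% interval -1.16 to 0.97). It was -0.60 when the libraries were thinned to the smallest total, and positive without vehicle replicate 2 (0.34) or without dexamethasone replicate 1 (0.16).

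Egr3, a relative of Egr1 with a role in muscle spindle development, had the lowest fold change of the 10. It had 4.45 and 11.4 CPM with vehicle and 2.24 and 7.36 CPM with dexamethasone. Each dexamethasone library was below the vehicle library of its number, by 0.99 and 0.63 on the log2 scale, or 0.503 and 0.646 of its level. The groups overlapped all the same, because vehicle replicate 1 was below dexamethasone replicate 2. The log2 fold change was -0.71 (SE 0.722, 95% interval -2.62 to 1.20, edgeR unadjusted p 0.372, adjusted p 1.00). Leaving out vehicle replicate 2 gave 0.13 and leaving out dexamethasone replicate 2 gave -1.84.

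**Figure D3:**
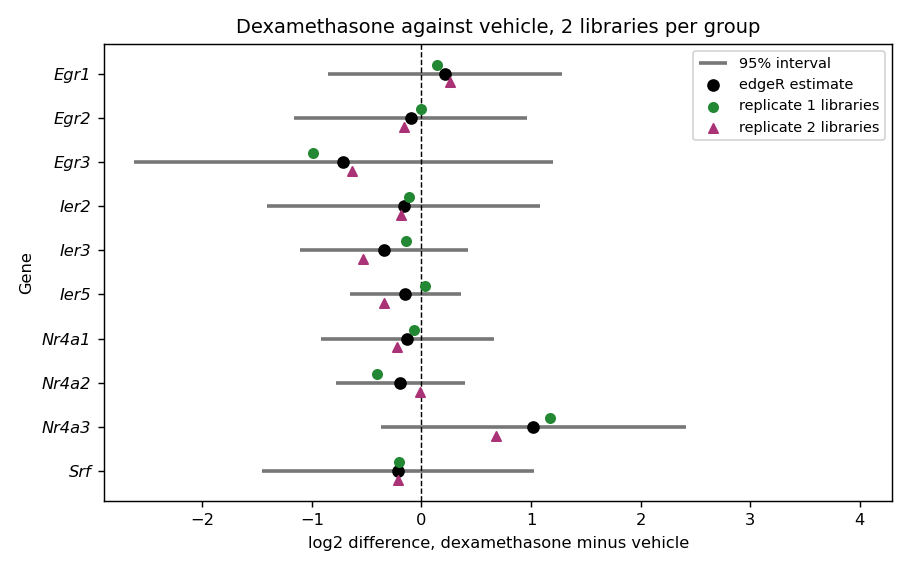
Log2 difference between dexamethasone and vehicle for the 10 genes. Black points are edgeR estimates with 95% intervals, green circles the difference between the replicate 1 libraries and purple triangles that between the replicate 2 libraries. Nr4a3 (1.02) and Egr3 (-0.71) lie farthest from 0, and every interval includes 0.

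Among the Ier genes, short genes with few or no introns, Ier2 had 4.18 and 8.22 CPM with vehicle and 3.87 and 7.22 CPM with dexamethasone. Its libraries split by replicate number and not by group, with a log2 fold change of -0.16 (95% interval -1.41 to 1.08). Ier3 had 2.09 and 2.42 CPM with vehicle and 1.90 and 1.68 CPM with dexamethasone. Both dexamethasone libraries were thus the lower ones, by a log2 fold change of -0.34 (95% interval -1.11 to 0.43, edgeR unadjusted p 0.296, adjusted p 1.00), on 39 to 157 counts per library. Ier5 was the steadiest member, at 14.1 and 14.5 CPM with vehicle and 14.4 and 11.4 CPM with dexamethasone. Its log2 fold change was -0.15 with the narrowest interval of the 10, -0.65 to 0.36.

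Nr4a1, the gene of the receptor Nur77, had 17.1 and 12.4 CPM with vehicle and 16.3 and 10.6 CPM with dexamethasone. The groups overlapped and the log2 fold change was -0.13 (95% interval -0.92 to 0.66). Nr4a2, the gene of Nurr1, had 6.76 and 6.59 CPM with vehicle and 5.10 and 6.53 CPM with dexamethasone. The dexamethasone libraries were both lower, but the log2 difference within replicate number 2 was -0.014, and the fold change was -0.19 (95% interval -0.78 to 0.39). It was 0.015 with thinned libraries.

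Nr4a3, the gene of NOR-1, had the highest fold change of the 10, opposite in sign to that of Egr3. Its counts were 53 and 66 (vehicle) and 194 and 262 (dexamethasone), or 2.84 and 1.74 CPM against 6.47 and 2.81 CPM. Within replicate number 1 the dexamethasone library was at 2.26 times the vehicle library and within number 2 at 1.60 times. The groups overlapped by a small margin, since vehicle replicate 1 (2.84 CPM) was just above dexamethasone replicate 2 (2.81 CPM). The log2 fold change was 1.02 (SE 0.527, 95% interval -0.37 to 2.42, edgeR unadjusted p 0.116, adjusted p 1.00). It was positive without each library in turn, from 0.31 without dexamethasone replicate 1 to 1.51 without dexamethasone replicate 2.

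Srf, the shared transcription factor of many immediate-early and muscle actin promoters, had 7.51 and 14.6 CPM with vehicle and 6.51 and 12.6 CPM with dexamethasone. Within each replicate number the dexamethasone library was lower by nearly the same amount, 0.21 and 0.22 on the log2 scale. The groups overlapped, and the log2 fold change was -0.21 (95% interval -1.46 to 1.03, edgeR adjusted p 1.00). In GENCODE M21 the gene overlaps the opposite-strand transcript Gm26904, and the strand setting of the counting is not given in the sources used here.

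The libraries were also compared by replicate number, as a description. In 5 members each replicate 2 library was above each replicate 1 library, Egr1, Egr2, Egr3, Ier2 and Srf (32.1% of all genes), and the reverse held in 2, Nr4a1 and Nr4a3 (31.8%). The 7 of 10 that split in either direction stand beside 63.9% of all genes, so the count is not particular to them. In vehicle, replicate 2 was at 2.54 times replicate 1 for Egr3, 1.96 times for Ier2, 1.94 times for Srf, 1.70 times for Egr1 and 1.66 times for Egr2. In dexamethasone the same ratios were 3.27, 1.86, 1.93, 1.84 and 1.50. Nr4a3 had ratios of 0.611 and 0.433 and Nr4a1 of 0.723 and 0.651. The median absolute log2 difference between replicate numbers, averaged over groups, was 0.74 in the 10 genes and 0.28 over all tested genes.

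Gene size and myotube content were set beside this split. The 10 genes span a median of 6.06 kb in GENCODE M21 against 25.5 kb for all tested genes, and 7 of them fall in the shortest quartile of genes. Medians of the signed difference, replicate 2 minus replicate 1, were 0.015, 0.046, 0.011 and -0.04 on the log2 scale, shortest to longest quartile. Shifts in opposite directions cancel in a signed median, so these values do not compare with the absolute differences above. Of the 12 myotube markers, 10 had both replicate 1 libraries above both replicate 2 libraries (31.8% of all genes). Mymx had the reverse (32.1% of all genes) and Mymk did not split. Their sum was between 87.1% and 90.5% Ttn. Without Ttn it was 12467 and 12595 CPM in the replicate 1 libraries of vehicle and dexamethasone and 5952 and 5920 CPM in the replicate 2 libraries. Their part in the result was not tested, and in bulk RNA fewer cells of a type cannot be told apart from less RNA per cell.

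**Figure D4:**
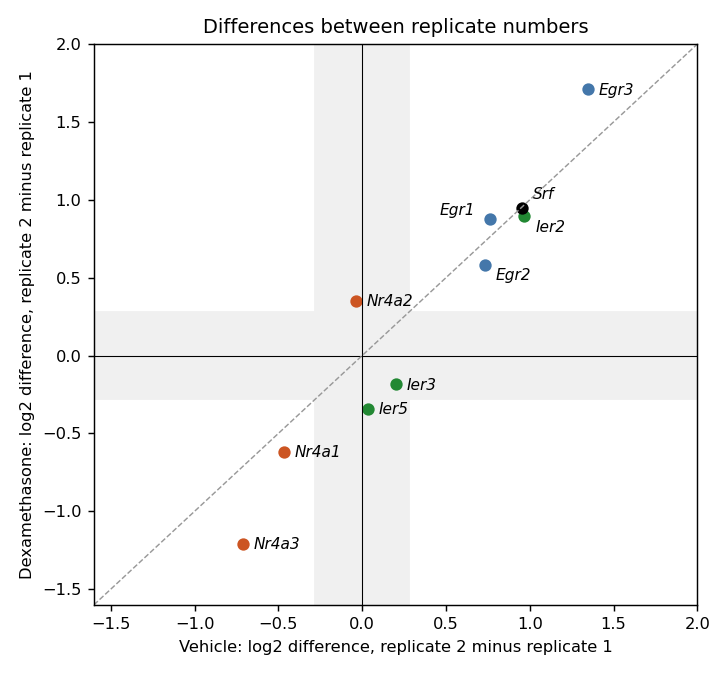
Log2 difference between replicate 2 and replicate 1 for each gene, in vehicle (horizontal axis) and in dexamethasone (vertical axis). Each point is 1 gene, the dashed line marks equal differences, and the grey bands reach to the median absolute difference of all tested genes (0.28). Egr1, Egr2, Egr3, Ier2 and Srf lie at the upper right and Nr4a1 and Nr4a3 at the lower left.

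For each family, the 3 genes closest to its mean profile over the 4 libraries were sought among 9468 other genes with a mean of at least 5 CPM. The measure was the Euclidean distance between centred log2 values, over 4 libraries only. For the Egr genes they were Ptov1 (distance 0.0460), Cmip (0.0584) and Rflnb (0.0872). For the Ier genes they were Bcl2l12 (0.0316), Taok2 (0.0431) and Acbd4 (0.0475), and for the Nr4a genes Ddx21 (0.0103), Tsr1 (0.0199) and Ppp1r10 (0.0218). The log2 fold changes of these 9 genes ran from -0.24 to 0.16. The match used these same libraries, so these values were largely set by the choice of genes and are no separate result. The Nr4a mean hides the difference between Nr4a3 and its relatives.

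Gene lists of the pathway follow, and their calls depend on the replicate block. With it, 3 cofactors were called higher and 4 lower, as were 1 and 0 signalling genes, 4 and 2 feedback genes, 0 and 0 AP-1 genes, 12 and 4 other immediate-early genes and 0 and 3 SRF targets, against 6.87% and 5.78% of all genes. The genes given below with a fold change, outside AP-1, all passed with it, and the adjusted p printed are those without it. Without the block edgeR called 0.0376% of all genes, so 0 calls in a list say little about that list. An unadjusted p under 0.05 was reached by 4.09% of all genes in the higher and 1.69% in the lower direction.

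The cofactors and partners of these factors were examined next, as 14 genes of which 12 were tested. None passed the threshold in edgeR. An unadjusted p under 0.05 was reached by 2 with a positive and 2 with a negative value (4.09% and 1.69% of all genes). The list median was -0.14. Nab1 and Nab2 encode corepressors that bind EGR proteins. Nab1 had 34.4 and 30.8 CPM with vehicle and 17.4 and 18.6 CPM with dexamethasone. Its groups lay apart, with a log2 fold change of -0.86 (SE 0.149, edgeR unadjusted p 0.00302, adjusted p 0.229). Nab2 had 14.9 and 20.8 CPM against 11.6 and 13.6 CPM, also apart, with a log2 fold change of -0.50 (SE 0.230, adjusted p 1.00).

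Elk3, the gene of a ternary complex factor that can repress, had 31.9 and 45.7 CPM with vehicle and 19 and 26.6 CPM with dexamethasone, with a log2 fold change of -0.76 (SE 0.270, edgeR adjusted p 0.796). Myocd, the gene of the SRF coactivator myocardin, had 23 and 17 counts with vehicle and 110 and 381 with dexamethasone. In CPM that was 1.23 and 0.448 against 3.67 and 4.08, so the groups lay well apart at a low level. Its log2 fold change was 2.27 (SE 0.542, edgeR unadjusted p 0.0105, adjusted p 0.406). Elk1 and Egr4 were listed at 0 in every library. Elk1 lies in a run of 87 consecutive table genes of 1 strand at 0, so its 0 was not read as silence.

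Of 22 genes of Ras, ERK and CREB signalling, 19 were tested. None passed in edgeR, and the median was -0.08. At an unadjusted p under 0.05, 1 was higher and 0 were lower (4.09% and 1.69% of all genes). Rps6ka5, the gene of the kinase MSK1 that acts on histone H3 and CREB at immediate-early genes, had 79.9 and 75 CPM with vehicle and 124 and 110 CPM with dexamethasone. Its log2 fold change was 0.60 (SE 0.131, edgeR unadjusted p 0.00748, adjusted p 0.350). Araf, Map2k1 and Rps6ka2 were listed at 0 in every library. Araf and Map2k1 lie in runs of 99 and 371 consecutive table genes of 1 strand at 0, so their 0 was not read as silence. For Rps6ka2 the run was 4 genes.

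All 18 genes of feedback inhibition and mRNA decay were tested, and none passed in edgeR. Their median was -0.01. An unadjusted p under 0.05 was reached by 3 with a positive and 2 with a negative value (4.09% and 1.69% of all genes). Errfi1, an inhibitor of EGF receptors, had 16 and 12.7 CPM with vehicle and 267 and 187 CPM with dexamethasone, a log2 fold change of 3.98 (SE 0.262, edgeR adjusted p 0.0989). Zfp36 and Zfp36l2 encode proteins that bind AU-rich elements and hasten the decay of immediate-early mRNAs. They had log2 fold changes of 1.00 (SE 0.219) and 1.35 (SE 0.268), with edgeR adjusted p of 0.350 and 0.302, and their groups did not overlap. Dusp4, the gene of a nuclear ERK phosphatase, had 4.18 and 5.01 CPM against 1.87 and 3.03 CPM, a log2 fold change of -0.90 (SE 0.336, edgeR adjusted p 0.856).

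The 7 AP-1 genes, the other classical arm of the serum response, had a median log2 fold change of -0.15, close to the -0.16 of the 10 genes. None passed in edgeR or had an unadjusted p under 0.05. Fosl1 had 1.88 and 3.29 CPM with vehicle and 0.667 and 2.50 CPM with dexamethasone, a log2 fold change of -0.68 (SE 0.700). Fos had 5.26 and 1.90 CPM with vehicle and 2.90 and 2.98 CPM with dexamethasone, so its vehicle libraries enclosed both others.

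Of 33 other immediate-early genes 32 were tested, with a median of 0.21. None passed in edgeR. At an unadjusted p under 0.05, 7 had a positive and 2 a negative value (4.09% and 1.69% of all genes). The named ones include known glucocorticoid targets. Ccn2, which encodes a matrix-associated growth factor, had 3.27 and 6.32 CPM with vehicle and 35.1 and 42.1 CPM with dexamethasone, a log2 fold change of 2.98 (SE 0.362, edgeR adjusted p 0.126). Per1, a clock gene, stood at 2.53 (SE 0.186), Sgk1, a kinase gene, at 1.87 (SE 0.152) and Gem, the gene of a small GTPase, at 1.33 (SE 0.192), with edgeR adjusted p of 0.117, 0.117 and 0.181. All 4 had fold changes above that of Nr4a3, and their groups did not overlap. They were picked for the largest changes in the list among genes that passed with the block. Their standing above Nr4a3 was thus largely set by the choice.

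Actin and cytoskeletal targets of SRF were the last list, with 16 of 20 genes tested. None passed in edgeR or had an unadjusted p under 0.05, and the median was -0.07. Cnn2 (log2 fold change -0.40, SE 0.750), Tpm4 (-0.36, SE 0.376) and Csrp1 (-0.34, SE 0.467) code for actin-binding or LIM proteins. These 3 are named because they passed with the replicate block, and their groups overlapped. Of the 16 genes, 8 had both replicate 2 libraries above both replicate 1 libraries (32.1% of all genes) and 5 had the reverse (31.8%). Acta1 was among the 5, with 592 and 155 CPM in vehicle and 620 and 190.4 CPM in dexamethasone. Acta2, Tagln and Tpm1 were listed at 0 in every library, each within a run of at least 20 such genes on 1 strand.

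**Figure D5:**
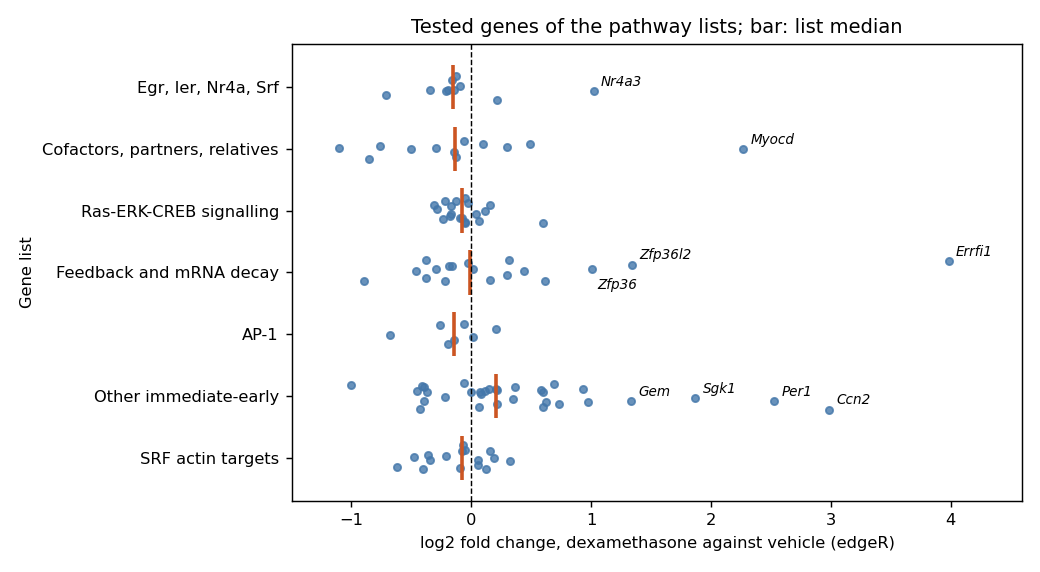
Log2 fold changes (edgeR, dexamethasone against vehicle) of the tested genes of each list. Each point is 1 gene, the orange bar is the list median, vertical scatter within a row carries no value, and names mark described genes beyond 1 on the log2 scale. The medians run from -0.16 for the Egr, Ier, Nr4a and Srf genes to 0.21 for the other immediate-early genes.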

How the data were processed

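Nascent RNA of C2C12 myotubes was sequenced in 4 libraries (vehicle and dexamethasone, replicates 1 and 2, grouped by sample title). The authors deposited raw read counts per gene for the whole series, in 23333 rows. The submitters' processing notes name TopHat2 2.0.13, SAMtools 1.1, HTSeq 0.6.1 and DESeq2 1.18.1 and the build mm9. The annotation, the feature counted and the strand setting are not given in the sources used here, and the labels name both a total RNA and an mRNA kit. Repeated rows of 1 gene with equal counts (51) were used once. Totals were 19631435 and 35116830 for vehicle 1 and 2 and 32463331 and 88596296 for dexamethasone 1 and 2, and depth limits genes of few counts most in vehicle 1.

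From these counts, 13285 genes passed filterByExpr (minimum count 10, minimum total 15) and were tested with edgeR 4.0.16 (R 4.3.3) by the two-sided quasi-likelihood test with TMM and group as the only term. The Benjamini-Hochberg adjustment ran over every tested gene, with a threshold of 0.05. Intervals are approximate 95% intervals of that fit. CPM are TMM-scaled, and log2 values per library have 0.5 counts added. P-values measure the spread between these libraries, which the labels do not describe as separate cultures. No pair of libraries agreed within counting noise (chi-square per degree of freedom of at least 45.8).

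The members and lists were chosen with earlier results of these data known. List genes named are up to 4 that passed here or with a replicate block and whose higher group had a minimum of 20 counts per library, or, where none did, the 2 with the largest change under that same minimum. Gene lengths came from GENCODE M21 by Ensembl identifier (99.5% of tested genes), and promoters from RefSeq (GRCm38.p6). Alternatives were other scalings (DESeq2 size factors, upper quartile, library size), filters, DESeq2 1.42.0, limma-voom (limma 3.58.1), the likelihood ratio test, a replicate block, thinning, a threshold of 0.1 and leaving out each library. Data were simulated for this comparison with a shift between replicate numbers like the one seen, the same in both groups. In them 200 genes were changed by 2 on the log2 scale, more than any member. The fit without the replicate block recovered 95 of the 200 among 13217 tested, with 0 false calls. The fit with the block recovered 200, with 8 false calls. The draws used the spread of the fit with the block (common coefficient of variation 0.0552, against 0.245 without it). Higher recovery with the block was thus built in and does not bear on the calls of Egr3 and Nr4a3.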

Additional observations from a re-analysis of the deposited data

How the results depend on the processing

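No member was called under any setting run, except for 2 under the replicate block. The replicate numbers are not said to mark a shared day, and with 2 pairs the data alone cannot establish a pairing, although the replicate 2 minus replicate 1 difference correlated between groups across 13285 genes (r = 0.724). With the block, Egr3 (log2 fold change -0.73, adjusted p 0.0149) and Nr4a3 (0.93, adjusted p 0.0228) passed, as did 913 higher and 768 lower genes (12.7% in all). Across the alternatives, Egr3 had adjusted p of 0.0149 to 1.00 and Nr4a3 of 0.0228 to 1.00. Against 5 higher and 0 lower genes, no filter beyond 1 count gave 23 higher, DESeq2's Wald test 236 higher and 53 lower, the likelihood ratio test 243 and 45, and limma-voom 0 higher (unadjusted p under 0.05 for 540 with a positive and 231 with a negative value). The cause was not tested.

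Of 110 values of single members under 11 alternatives with all libraries, 107 kept their direction and side and 1 reversed, Nr4a2 at 0.0146 with libraries thinned in 1 random draw. That draw also moved Egr2 to -0.60, Ier2 to -0.09 and Ier3 to -0.21, by over 1.5 times. Leaving out 1 library unbalances the replicate numbers by construction. It gave 4 to 63 higher genes (most without dexamethasone replicate 1), 0 to 8 lower genes, 0 to 0 members called and a member median of -0.34 (without dexamethasone replicate 2) to 0.23 (without vehicle replicate 2). Signs changed for Egr1 (-0.29 to 0.65), Egr2 (-0.43 to 0.34), Egr3 (-1.84 to 0.13), Ier2 (-0.69 to 0.42), Ier5 (-0.32 to 0.016), Nr4a1 (-0.47 to 0.15) and Srf (-0.77 to 0.35), and not for Ier3 (-0.44 to -0.23), Nr4a2 (-0.39 to -0.03) and Nr4a3 (0.31 to 1.51). In these fits the lone library is assumed to vary like the other group. Members with under 100 counts in a library (Egr2, Egr3, Ier2, Ier3 and Nr4a3) are the most limited by depth.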
